A study of Mus musculus with 9 samples.

Results

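The genes described here are 10 known markers of the fetal Sertoli cell, chosen by name and matched by mouse Ensembl gene identifier: Ptgds, Cst9, Cst8, Defb19, Cbln4, Serpine2, Mmd2, Tesc, Nedd9 and Aard. All 10 were found among the 15300 genes of the deposited tables. They were read in fetal mouse gonads of the C57BL/6 strain, freed of the mesonephros at E13.5 (days of embryonic development), in 3 groups of 3 RNA sequencing samples. XY-KO samples were testes carrying AMH-Cre, a Cre recombinase driven by the AMH promoter, together with Sox9flox/flox. XX-WT samples were ovaries and XY-WT samples were testes, and both carried Sox9flox/flox without AMH-Cre, so the floxed alleles were common to all 3 groups. Whether each sample came from 1 fetus or several is not stated, and p-values measure the spread between these samples, which may be technical.

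Sertoli cells are the supporting cells of the testis: they enclose the germ cells in cords, make a basement membrane and secrete hormones, carriers and protease inhibitors. They differentiate when SRY, and then SOX9, is switched on in the supporting cell lineage of the XY gonad, and the same lineage gives rise to pre-granulosa cells in the XX gonad. AMH, the hormone whose promoter drives the Cre, is itself made by fetal Sertoli cells. The study asked what SOX9 does in the fetal testis.

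The deposited tables held the authors' limma results for pairs of groups, not values of single samples: sequencing depth is unknown and no sample could be shown alone. Fold changes below are on the log2 scale, with a standard error (SE) recovered from the deposited moderated t. A gene was called changed at an adjusted p under 0.05. Sox9 itself stood at 14.7% of the XY-WT level in XY-KO (95% interval 11.4% to 19.0%) and at 4.50% in XX-WT, calculated from the authors' deposited tables. In bulk gonads, fewer Sertoli cells and less RNA per Sertoli cell cannot be told apart.

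In XY-KO against XY-WT, 9 of the 10 markers were called lower and none higher, in a comparison in which 1.57% of all genes were called lower and 0.699% higher. Of the 9, 7 fell at least 2-fold, as did 0.843% of all genes. The median log2 fold change of all 10 markers, XY-KO against XY-WT, was -1.15, and that of all genes was -0.01. Between 17.3% (Tesc) and 61.9% (Nedd9) of the XY-WT level remained in XY-KO, and 9 of the 10 genes were still called higher in XY-KO than in XX-WT, a call made for 9.16% of all genes. The exception was the cystatin gene Cst8, which was not called between XY-KO and XX-WT. Its XX-WT level was 61.4% of the XY-WT level, so Cst8 RNA was not particular to the testis in these samples. In XX-WT against XY-WT, all 10 were called lower, as were 12.4% of all genes (10.9% were called higher), with a median of -5.17. The 10 were chosen as markers of a testis cell and with earlier results of these data known. These counts are therefore a description and not an independent test.

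**Figure D1:**
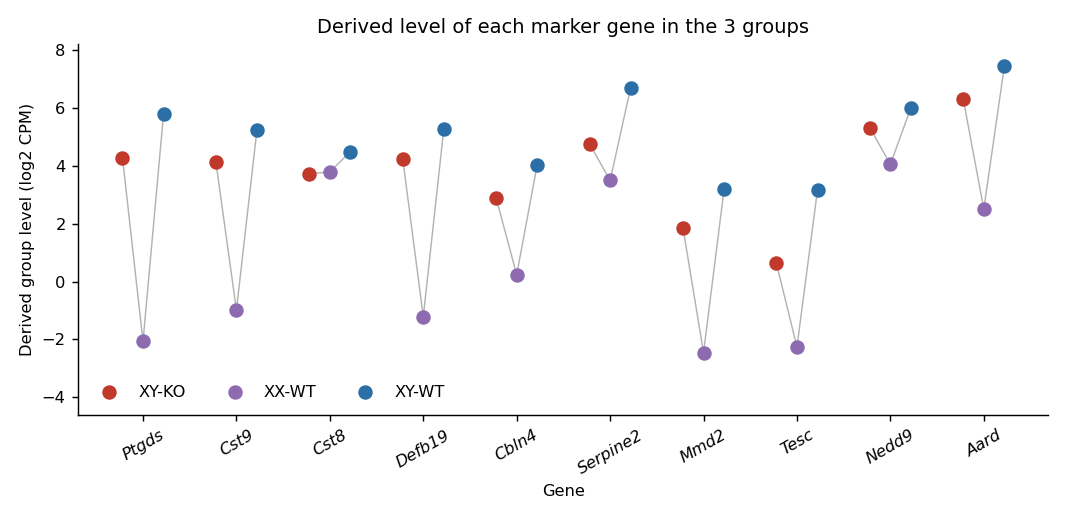
Derived level of each of the 10 marker genes, in log2 CPM (counts scaled to library size), in XY-KO, XX-WT and XY-WT; each point is 1 group, derived from the authors' mean and fold changes, with no error bar, since group errors were not analysed here. For 9 genes the XY-KO point lies between those of XX-WT and XY-WT, and for Cst8 the XY-KO point, at 3.72, is level with the XX-WT point, at 3.78.

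Ptgds, Cst9, Cst8, Defb19, Cbln4 and Serpine2 encode secreted proteins. Ptgds encodes the lipocalin-type prostaglandin D synthase, whose product, prostaglandin D2, is known in the mouse to promote Sertoli cell differentiation. Its derived level was 4.28 log2 CPM in XY-KO, -2.07 in XX-WT and 5.79 in XY-WT. The authors' deposited table put it at -1.51 (SE 0.275, adjusted p 0.00719) in XY-KO against XY-WT, which left 35.0% of the XY-WT level (95% interval 23.4% to 52.6%). In XX-WT it stood at -7.86 (SE 0.966) against XY-WT in the authors' deposited table, the largest sex difference of the 10 genes, and XY-KO was 81.5-fold above XX-WT (95% interval 19.4 to 342). Both comparisons with the ovary carried a wide interval, and its level in the ovary was low. The receptor genes for prostaglandin D2 were not among the genes tested. Of 10 measured genes for prostaglandin synthesis, transport, breakdown and response, none was called in XY-KO against XY-WT by limma. An unadjusted limma p under 0.05 was held there by 2899 of all 15300 genes and by 2 of these 10. Those were Abcc4, a prostaglandin exporter (-0.47, adjusted p 0.213), and Hpgds, the other prostaglandin D synthase (0.63, adjusted p 0.233), per the authors' deposited table.

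Cst9 (also called testatin) and Cst8 (also called Cres) are relatives of the cystatins, inhibitors of cysteine proteases, and stand in a cluster of such genes on chromosome 2. In GENCODE M21 on GRCm38, Cst8 spans 148798785 to 148805595 and Cst9 spans 148835147 to 148838738, both on the plus strand and 29.6 kb apart. Their longest transcripts share no identical run longer than 9 nt, a length far below that of a read. The members of this pair differed in the ovary. Cst9 had 4.13 log2 CPM in XY-KO, -0.99 in XX-WT and 5.25 in XY-WT. Cst8 had 3.72 in XY-KO, 3.78 in XX-WT and 4.49 in XY-WT. XX-WT was thus 75.3-fold below XY-WT for Cst9 (95% interval 40.3 to 141) and 1.63-fold below it for Cst8 (95% interval 1.26 to 2.11). The sex difference of Cst8 was the smallest of the 10 genes.

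In XY-KO against XY-WT, the authors' deposited table gave -1.12 (SE 0.156, adjusted p 0.000816) for Cst9 and -0.76 (SE 0.178, adjusted p 0.0344) for Cst8. For Cst9, 46.0% of the XY-WT level remained in XY-KO, and XY-KO was 34.7-fold above XX-WT (95% interval 18.5 to 65.1). For Cst8, 58.9% of the XY-WT level remained in XY-KO, and XY-KO against XX-WT stood at -0.06 (adjusted p 0.869), per the authors' deposited table, with a 95% interval of the difference from -0.45 to 0.33. Removing the dependence of fold change on GC content and transcript length ended the call of Cst8 (-0.69, adjusted p 0.0680). Over the whole table, 205 genes were called lower in both XY-KO and XX-WT than in XY-WT; XY-KO was above XX-WT for 77 of them, below it for 5 and not called against it for 123. A gene was called lower in XY-KO than in XX-WT in 9.11% of the whole table. Of the 9 markers among the 205, 8 were above XX-WT and Cst8 was not called.

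The stretches before the starts of this neighbouring pair are shown because these genes are relatives in a single cluster with different ovary levels. Each runs from 250 to 61 bases before the RefSeq start (GRCm38.p6, plus strand), at chr2:148798589-148798778 for Cst8 and chr2:148834897-148835086 for Cst9, overlaps no exon annotated in GENCODE M21, and is in lower case throughout, as none of the motifs searched was found in it.
Cst8: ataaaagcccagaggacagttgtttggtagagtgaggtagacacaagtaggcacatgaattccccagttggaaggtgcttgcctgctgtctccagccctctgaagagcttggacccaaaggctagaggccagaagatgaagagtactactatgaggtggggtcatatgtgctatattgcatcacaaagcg
Cst9: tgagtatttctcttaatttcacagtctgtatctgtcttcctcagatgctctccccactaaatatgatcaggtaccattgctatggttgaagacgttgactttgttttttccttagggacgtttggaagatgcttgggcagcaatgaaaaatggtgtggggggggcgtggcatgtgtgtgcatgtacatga
The longest identical run between these windows was 7 bases.

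RefSeq promoter windows, from 250 bases before to 50 after the start, were given for 8 of the 10 genes, all but Defb19 and Aard. They were searched on both strands for cores of SOX binding sites (ACAAT, with an A before it as AACAAT, or with a G after it as ACAATG, so that these overlap), for a core of NR5A1 binding sites (CAAGGTCA, which contains the shorter AGGTCA), and for a core of GATA sites (AGATAA). A SOX core was found in 1 of the 8, Cbln4, which held ACAAT and AACAAT; 31.0% and 10.7% of all 32851 windows held them. The longest NR5A1 core, held by 1.56% of all windows, was found in 1 of the 8, Cst8, and the shorter AGGTCA within it by 16.3% of all windows and in no other of the 8. ACAATG and AGATAA, held by 12.6% and 11.2% of all windows, were in none of the 8. The 30 bases around the matches are shown with the match in capitals. For Cst8 they lie at chr2:148798783-148798812 on the plus strand, where the match begins 48 bases before the RefSeq start. This stretch overlaps 1 exon annotated in GENCODE M21. By that annotation Cst8 starts at 148798785, ahead of the match, so the match lies inside the gene and not upstream of it. For Cbln4 they lie at chr2:172043687-172043716 on the minus strand, where the reverse complement of AACAAT begins 242 bases before the RefSeq start.
Cst8: ctgggcttCAAGGTCAggacttacataact
Cbln4: tcactatgATTGTTcctgcccctgattggg

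Lower calls covered 1.57% of all genes in XY-KO against XY-WT, and higher calls 0.699%. Of 9 other measured cystatins and cathepsins, 1 was called there and it fell. It was Ctsl, the protease cathepsin L, at -0.87 (SE 0.180, adjusted p 0.0173), per the authors' deposited table. Ctsl stood at -2.13 in XX-WT against XY-WT there. Cst3, the widely expressed cystatin C and a neighbour of the pair, stood at -0.49 (adjusted p 0.166) in XY-KO and -0.81 (adjusted p 0.00433) in XX-WT, both against XY-WT, in the authors' deposited tables. Cst13 and Cst12, which lie next to Cst9 and Cst8, had fold changes of 0.31 (adjusted p 0.779) and 0.48 (adjusted p 0.740) in XY-KO against XY-WT, per the authors' deposited table; both were chosen for their place in the cluster after the values were seen. A further gene of the same stretch, 8030411F24Rik, 12.8 kb from Cst8, stood at -1.78 (adjusted p 0.115) in XY-KO and at -4.67 (adjusted p 0.00143) in XX-WT, both against XY-WT, per the authors' deposited tables. It too was named after its values were seen.

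Defb19, a beta-defensin gene expressed in Sertoli cells, was the only one of the 10 that did not pass the test in XY-KO against XY-WT. The authors' deposited table gave -1.03 (SE 0.277, adjusted p 0.0656), and the 95% interval of its remaining level ran from 32.4% to 73.4% of that in XY-WT. Its derived level was 4.24 log2 CPM in XY-KO, -1.22 in XX-WT and 5.28 in XY-WT. Its SE was 0.277, that of Cst9, with a fold change of -1.12, was 0.156. Adjusted over the 3 comparisons together, Defb19 passed (adjusted p 0.0189). That adjustment pooled in the comparisons with the ovary, in which more genes were called. It gave all 10 markers a smaller adjusted p in XY-KO against XY-WT, so this pass is not a stricter test. With the GC and length trend removed, Defb19 stood at -0.85 (adjusted p 0.15) and was not called. In XX-WT it was 90.1-fold below XY-WT (95% interval 26.3 to 308), and XY-KO was 43.9-fold above XX-WT (95% interval 12.7 to 152). Both intervals were wide, and its level in the ovary was low. None of the 12 other beta-defensins listed was among the genes tested, nor any of 11 lipocalins and related carriers, the family of Ptgds.

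Cbln4 encodes a cerebellin, a secreted protein that organises synapses in the brain by binding neurexins. It had 2.88 log2 CPM in XY-KO, 0.24 in XX-WT and 4.04 in XY-WT. The authors' deposited table put it at -1.16 (SE 0.240, adjusted p 0.0179) in XY-KO against XY-WT, with 44.9% of the XY-WT level remaining (95% interval 31.5% to 63.9%), and XY-KO was 6.27-fold above XX-WT. Its relative Cbln1, taken up after its values were seen, stood at -0.17 (SE 0.140, adjusted p 0.557) in XY-KO against XY-WT in the authors' deposited table, where 89.0% of the XY-WT level remained (95% interval 72.4% to 109%). Cbln1 had a larger sex difference than Cbln4, at -6.03 (SE 0.387) against -3.80 (SE 0.407) in XX-WT against XY-WT in the authors' deposited table. The difference between these genes was not tested. An unadjusted limma p under 0.05 was held by 2899 of all 15300 genes in XY-KO against XY-WT. None of 8 other measured cerebellins and partners was called there by limma. Of the 8, 1 had an unadjusted p under 0.05, the neurexin gene Nrxn3 (0.75, adjusted p 0.0989). The next smallest adjusted p was that of Dcc, a netrin receptor that binds CBLN4 (0.74, adjusted p 0.440), per the authors' deposited table.

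Serpine2 encodes protease nexin-1, a secreted inhibitor of thrombin and plasminogen activators. Its derived level was 4.75 log2 CPM in XY-KO, 3.49 in XX-WT and 6.69 in XY-WT. In XY-KO it was 26.1% of the XY-WT level (95% interval 21.1% to 32.1%), and its p was the third smallest of the 15300 genes in that comparison. Its adjusted p there was 2.93e-06 in the authors' deposited table. XY-KO was 2.40-fold above XX-WT (95% interval 1.88 to 3.06), so Serpine2 came nearer to the ovary level than any other of the secreted genes except Cst8.

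Among all genes, 1.57% were called lower in XY-KO against XY-WT and 0.699% higher. Of 10 measured serpins, plasminogen activators and their receptors other than Serpine2, 1 was called there and it fell. It was Serpina5, the protein C inhibitor, with an adjusted p of 0.0358 in the authors' deposited table for a log2 fold change of -2.79 (SE 0.656). Once the GC and length trend was taken out, the fold change of Serpina5 was -2.70 and its adjusted p 0.0513. Serpinf1, which encodes the secreted serpin PEDF, stood at 0.66 (adjusted p 0.0545), per the authors' deposited table, and was called higher without the trend (0.87, adjusted p 0.0121). Plat, a plasminogen activator that protease nexin-1 inhibits, stood at -0.39 (adjusted p 0.162), and Lrp1, a receptor that clears serpin complexes, at -0.04 (adjusted p 0.931); both were chosen for that role after the values were seen.

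**Figure D2:**
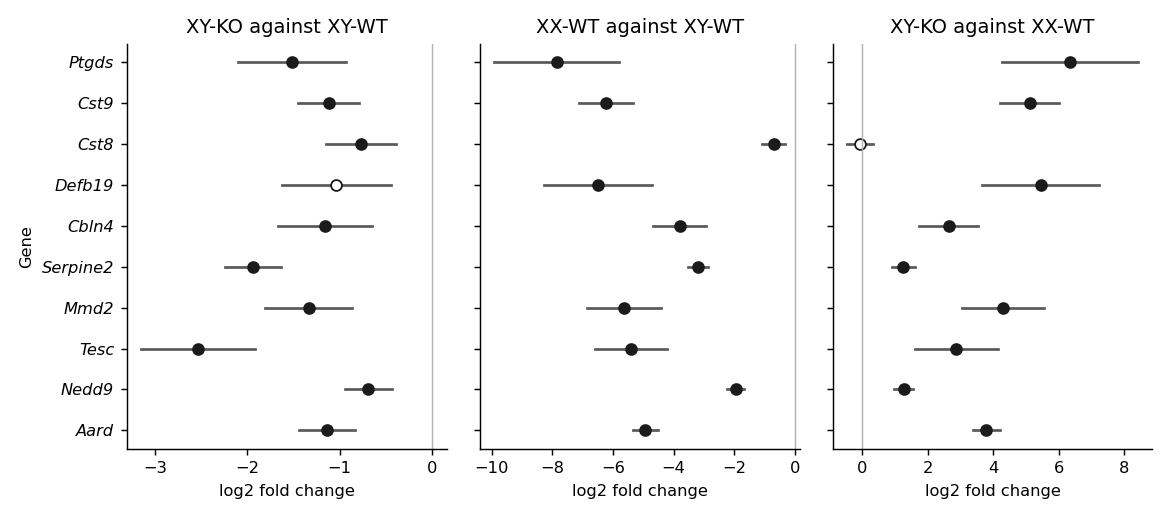
Log2 fold changes of the 10 marker genes in the 3 comparisons, the first-named group over the second, from the authors' deposited tables; bars are 95% intervals, filled points have an adjusted p under 0.05 and open points do not, and the 3 horizontal axes differ in scale. Every point of the first 2 panels is below 0, and in the third panel all points but that of Cst8 are above 0.

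The products of the other 4 genes are not secreted or have no well-described role. Mmd2 encodes a multi-span membrane protein of the progestin and adipoQ receptor family. It had 1.85 log2 CPM in XY-KO, -2.46 in XX-WT and 3.19 in XY-WT, and the authors' deposited table gave -1.34 (SE 0.222, adjusted p 0.00356) in XY-KO against XY-WT. This left 39.6% of the XY-WT level (95% interval 28.5% to 55.0%), and XY-KO was 19.8-fold above XX-WT. Its closest relative by name, Mmd, was named after its values were seen and stood at 0.37 (adjusted p 0.196) in XY-KO against XY-WT in the authors' deposited table. There, 1.57% of all genes were called lower and 0.699% higher. Of 9 other measured members of the family, 1 was called and fell, Adipor1, a receptor for adiponectin, at -0.60 (adjusted p 0.0457), per the authors' deposited table. Without the trend its fold change was -0.44 and its adjusted p 0.157. The other adiponectin receptor gene, Adipor2, stood at -0.44 (adjusted p 0.108), per the authors' deposited table.

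Tesc encodes tescalcin, a calcium-binding EF-hand protein. Among the 10 genes it had the largest fall in XY-KO against XY-WT, -2.53 (SE 0.289, adjusted p 0.000171), per the authors' deposited table. Its derived level was 0.63 log2 CPM in XY-KO, -2.25 in XX-WT and 3.16 in XY-WT. In XY-KO it was 17.3% of the XY-WT level (95% interval 11.3% to 26.4%), and XY-KO was 7.37-fold above XX-WT (95% interval 3.03 to 17.9). The level of Tesc in the ovary was low. Its relative Chp2 stood at -0.19 (adjusted p 0.668) in XY-KO and -2.27 (adjusted p 3.64e-05) in XX-WT, both against XY-WT, in the authors' deposited tables.

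Nedd9 encodes a scaffold protein of the CAS family that acts at focal adhesions. It was the most evenly expressed of the 10 after Cst8, with 5.31 log2 CPM in XY-KO, 4.04 in XX-WT and 6.00 in XY-WT. The authors' deposited table gave -0.69 (SE 0.120, adjusted p 0.00502) in XY-KO against XY-WT, the smallest fall of the 10. XY-KO had 61.9% of the XY-WT level (95% interval 51.8% to 73.8%), and was 2.41-fold above XX-WT (95% interval 1.98 to 2.93). In XY-KO against XY-WT, an unadjusted limma p under 0.05 was held by 2899 of all 15300 genes. It was held by 6 of 11 other measured CAS proteins and partners. None of the 11 was called there by limma, and their median was -0.37. The smallest adjusted p belonged to Aurka, a mitotic kinase that NEDD9 activates (-0.51, adjusted p 0.0885), and Bcar1, the founding CAS gene (-0.49, adjusted p 0.126), per the authors' deposited table.

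Aard encodes a protein rich in alanine and arginine and has no well-described function. Its derived level was 6.30 log2 CPM in XY-KO, 2.50 in XX-WT and 7.43 in XY-WT. The authors' deposited table gave -1.14 (SE 0.143, adjusted p 0.000390) in XY-KO against XY-WT, leaving 45.5% of the XY-WT level (95% interval 36.8% to 56.2%). In XX-WT against XY-WT its p was among the smallest of the table, second of 15300 in rank, at 30.5-fold lower (95% interval 22.9 to 40.5). XY-KO was 13.9-fold above XX-WT (95% interval 10.4 to 18.5).

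**Figure D3:**
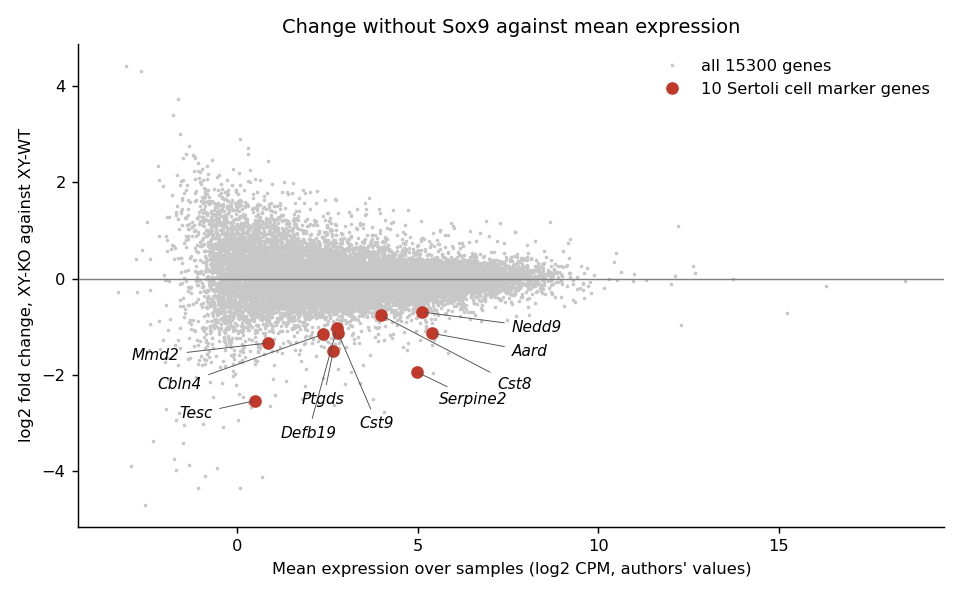
Log2 fold change in XY-KO against XY-WT plotted against the authors' mean log2 CPM over samples, for all 15300 genes (grey) and the 10 marker genes (red). All 10 are below 0, at mean levels from 0.51 (Tesc) to 5.41 (Aard), and Tesc and Serpine2 are the lowest of them.

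For each gene, the XY-KO change was expressed as a share of the sex difference, that is, of the change in XX-WT, each measured from XY-WT on the log2 scale, with an interval that allows for the XY-WT samples they have in common. Defb19 had the lowest share, 15.9% (95% interval 6.95% to 26.7%), followed by Cst9 at 17.9% (95% interval 12.6% to 23.8%), Ptgds at 19.2% (95% interval 11.5% to 29.3%), Aard at 23.1% (95% interval 17.2% to 28.9%) and Mmd2 at 23.7% (95% interval 15.1% to 34.1%). These 5 intervals overlapped. A low ovary level makes the sex difference large on the log2 scale and the share small. The derived XX-WT level was 0.43 CPM for Defb19, 0.50 for Cst9, 0.24 for Ptgds and 0.18 for Mmd2, but 5.67 for Aard. Tesc, at 0.21 CPM there, had a larger share. The order of the shares is thus not an order of the loss from the testis level. Cbln4 had 30.4% (95% interval 17.3% to 45.2%), Nedd9 35.3% (95% interval 23.4% to 47.1%) and Tesc 46.8% (95% interval 33.9% to 63.9%).

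Serpine2, at 60.6% (95% interval 51.7% to 70.0%), had an interval above those of all these genes except Tesc. Cst8 had 109% (95% interval 60.0% to 206%), a wide interval over a small sex difference. Differences between genes were not tested, as the files hold no values by sample. The median share was 23.7% over the 9 markers that were at least 2-fold lower in XX-WT, a change called for 6.27% of all genes. Over the 960 genes so called it was 18.4%, with quartiles of 0.223% and 42.6%.

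**Figure D4:**
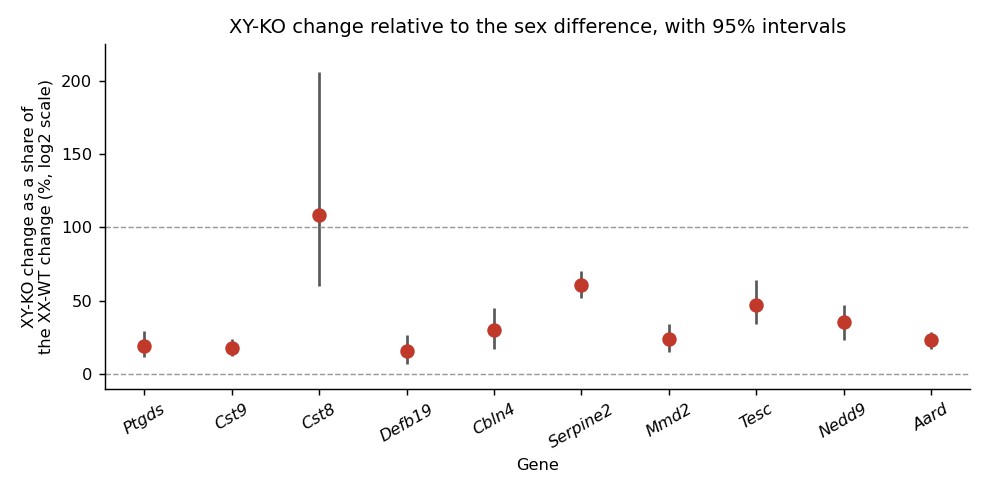
The change in XY-KO as a share of that in XX-WT, each measured from XY-WT, in percent on the log2 scale, for each of the 10 marker genes; points are the shares, bars are 95% intervals, and dashed lines mark 0 (the XY-WT level) and 100 (the XX-WT level). The interval of Cst8 reaches across 100, and those of the other 9 genes lie between the lines.

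Group levels were derived from the authors' mean and fold changes, on the assumption that the 3 groups weigh equally in the mean. Divided by the length of the longest transcript, the derived levels can be set beside each other. In XY-KO the order by CPM per kb was Aard (58.3), Defb19 (48.1), Cst9 (25.4), Cst8 (16.4), Ptgds (14.6), Nedd9 (8.15), Serpine2 (7.94), Cbln4 (2.54), Tesc (1.5) and Mmd2 (1.09). In XX-WT it was Cst8 (17.1), Aard (4.21), Nedd9 (3.38), Serpine2 (3.31), Defb19 (1.09), Cst9 (0.734), Cbln4 (0.406), Tesc (0.203), Ptgds (0.180) and Mmd2 (0.0550). In XY-WT it was Aard (128), Defb19 (98.5), Cst9 (55.3), Ptgds (41.8), Serpine2 (30.5), Cst8 (27.9), Nedd9 (13.2), Tesc (8.67), Cbln4 (5.66) and Mmd2 (2.75). Serpine2 thus stood above Nedd9 in XY-WT and beside it in XY-KO and XX-WT. These CPM per kb levels have no error of their own, so no order between neighbours was tested.

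In GENCODE M21 on GRCm38, the genes other than the cystatin pair lie as follows. Ptgds (ENSMUSG00000015090) spans chr2:25466709-25470046 on the minus strand. Defb19 (ENSMUSG00000050645) spans chr2:152576086-152580312 on the minus strand. Cbln4 (ENSMUSG00000067578) spans chr2:172036233-172043466 on the minus strand. Serpine2 (ENSMUSG00000026249) spans chr1:79794197-79861180 on the minus strand. Mmd2 (ENSMUSG00000039533) spans chr5:142562358-142608800 on the minus strand. Tesc (ENSMUSG00000029359) spans chr5:118027743-118061878 on the plus strand. Nedd9 (ENSMUSG00000021365) spans chr13:41309581-41487362 on the minus strand. Aard (ENSMUSG00000068522) spans chr15:52040107-52045722 on the plus strand. Nedd9 overlaps 5 other annotated genes, 1 on its own strand and 4 on the opposite one, of which 0 were measured, and the other markers overlap none.

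In all, 5 of the 10 markers lie on chromosome 2, and 55 measured genes that are not markers lie within 200 kb of one of the 10. Of these 55, 1 was called lower and 1 higher in XY-KO against XY-WT, as were 1.57% and 0.699% of all genes. The authors' deposited table gave -1.22 (adjusted p 0.00118) for Abca2, a lipid transporter gene 18.2 kb from Ptgds, and 0.82 (adjusted p 0.0387) for Elovl2, a fatty acid elongase gene 89.2 kb from Nedd9. In XX-WT against XY-WT, 5 of the 55 were called lower and 2 higher, as were 12.4% and 10.9% of all genes. Cbln4 had no measured gene within 200 kb. The distance was chosen after the markers' values were seen.

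**Figure D5:**
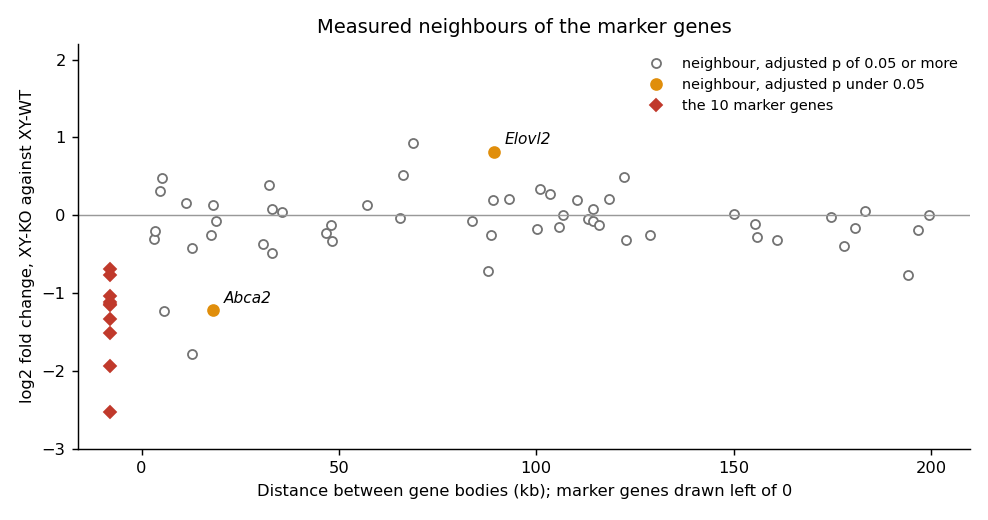
Log2 fold change in XY-KO against XY-WT of the 55 measured genes within 200 kb of a marker gene, plotted against the distance between the gene bodies in kb (each gene drawn once, at its nearest marker), with the 10 marker genes drawn left of 0. Abca2 at 18.2 kb and Elovl2 at 89.2 kb are the only neighbours called.

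Of 29 other measured Sertoli cell markers, 9 were called lower in XY-KO than in XY-WT and none higher. The shares of all genes were 1.57% lower and 0.699% higher, and the median of the 29 was -0.54. Sox9 was 1 of the 9 and entered that median, though its fall followed from the design, as it was the gene deleted. The rest were its relative Sox10, the hormone gene Amh, the secreted signals Dhh and Gdnf, and the tight junction gene Cldn11. They also included the steroid carrier gene Shbg, the receptor gene Erbb3 and the BMP antagonist gene Sostdc1. For Erbb3 the authors' deposited table gave -1.88 (SE 0.234, adjusted p 0.000355), and for Sostdc1 -0.79 (adjusted p 0.0303); without the trend Sostdc1 stood at -0.74 (adjusted p 0.0505). Other markers, named after their values were seen, were not called in XY-KO: Inhbb had 90% of the XY-WT level in XY-KO (95% interval 73.2% to 111%), Erbb4 99.4% (95% interval 73.6% to 134%) and Clu 124% (95% interval 97.8% to 158%). All 3 were called lower in XX-WT than in XY-WT. In all, 25 of the 29 were called lower there and 3 higher (Wt1, Kitl and Krt18), against 12.4% and 10.9% of all genes. In XY-KO against XX-WT, 19 of the 29 were called higher and 4 lower, against 9.16% and 9.11% of all genes. Those 4 were Wt1, Kitl, Krt18 and Cldn11 (-1.29, adjusted p 0.00714, per the authors' deposited table).

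Of 44 markers of other cells of the gonad in 8 lists, 1 was called lower in XY-KO than in XY-WT and 1 higher. The shares of all genes were 1.57% and 0.699%. The gene called lower was the germ cell gene Utf1, and the gene called higher was the interstitial gene Maf. The authors' deposited table put Utf1 at -1.15 (adjusted p 0.0277) and Maf at 0.50 (adjusted p 0.0344). Without the trend, Utf1 stood at -0.64 (adjusted p 0.250) and Maf at 0.47 (adjusted p 0.0543). None of 7 pre-granulosa markers was called, but without the trend 1 of them, the secreted WNT signalling activator gene Rspo1, was called higher (1.04, adjusted p 0.0157, against 0.69 and adjusted p 0.103 in the authors' deposited table). Their summed derived level was 42 CPM in XY-KO, 364 in XX-WT and 32.7 in XY-WT. None of 5 fetal Leydig markers was called, with a summed level of 633 CPM in XY-KO, 24.1 in XX-WT and 640 in XY-WT. Germ cell markers summed to 307 CPM in XY-KO, 569 in XX-WT and 380 in XY-WT, and interstitial markers to 680 CPM in XY-KO, 317 in XX-WT and 664 in XY-WT. Endothelial markers summed to 165 CPM in XY-KO, 158 in XX-WT and 171 in XY-WT. Erythroid, macrophage and mesonephric markers, none of them called in XY-KO against XY-WT, summed to 82.8, 10.4 and 11.4 CPM in XY-KO, 119, 13.1 and 19.2 CPM in XX-WT, and 91.9, 11.3 and 14.1 CPM in XY-WT. The median log2 fold change of the 4 mesonephric markers in XY-KO against XY-WT was -0.95. The part of other cell types in the markers' values was not tested.

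The gene most like the 10 markers, over the 3 groups and among genes of at least median expression, was Hhip, which encodes a protein that binds hedgehog ligands. Its pair of log2 fold changes against XY-WT lay 0.12 from the pair of medians of the markers. It stood at -1.26 in XY-KO and -5.13 in XX-WT, both against XY-WT, in the authors' deposited tables. The next were Cyp26b1, Adh1, Col9a3 and Star, at distances of 0.89 to 1.06, of which Col9a3 alone was called in XY-KO against XY-WT (-2.17, adjusted p 2.02e-06), per the authors' deposited table.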

How the data were processed

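The 3 deposited tables compared XY-KO with XY-WT, XX-WT with XY-WT and XY-KO with XX-WT. In each, the authors deposited the log2 fold change, the mean log2 CPM, limma's t and B, each a score, and, per the file headers, its p-value and Benjamini-Hochberg adjusted p-value. The genome build GRCm38 and the tools HTSeq 0.6.1p1, TopHat2 2.0.8, Trimmomatic 0.30 and limma 3.24.0 are named, per the submitters' processing notes; the filter on low genes, weights and strandedness are not given in the sources used here. SPIA-amplified non-ribosomal RNA was sequenced as read pairs, per the labels' protocols.

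The adjustment was recomputed (largest relative difference 0.000769). The 3 fold changes added up within 0.005, and each table's t and p matched with 15.27 degrees of freedom. SE was the fold change divided by t. Group levels assume equal weight for the groups. Shares were given Fieller intervals, with the covariance taken from the SEs of the 3 comparisons. The longest transcript, GC content and positions were those of GENCODE M21 (GRCm38), with a match for 15192 genes. The markers overlapped no other measured gene, and at most 0.748% of the 50-nt words of a marker's longest transcript occurred in another gene. The trend was a robust regression on polynomials of degree 3. Promoter sequences came from RefSeq on GRCm38.p6. The statistics were tested on simulated data. The tools were scipy 1.17.1, statsmodels 0.14.6, numpy 2.4.6, pandas 2.3.3 and matplotlib 3.10.9 under Python 3.11.15.

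The markers and lists were chosen with earlier results of these data known. Named genes were the 10 markers, Sox9, the 2 genes of each other list with the smallest adjusted p in XY-KO against XY-WT and any called there, and the 5 genes nearest to the marker medians. Genes named otherwise are said to be so, and 1 gene that the rule names is not reported here. With no values by sample, no sample was refitted or left out.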

Additional observations from a re-analysis of the deposited data

How the results depend on the processing

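No paired analysis was possible because the tables hold comparisons of groups and no values by sample, and no replicate could be left out for the same reason. In XY-KO against XY-WT, where 9 of the 10 markers were called lower, 4 were called with Bonferroni adjustment (Cst9, Serpine2, Tesc and Aard), and 4 of the 4 tested among genes at or above median expression. In XX-WT against XY-WT the count was 4 of the 4 tested among such genes, and in XY-KO against XX-WT it was 3 of the 4 tested there and 5 of 10 with Bonferroni adjustment. An adjusted p under 0.01, a limit of 2-fold, adjustment over the 3 comparisons together and removal of the GC and length trend left all 3 counts within 1.5 times, and no call reversed under any of the 6 alternatives. In XY-KO against XY-WT, 7 markers were called at an adjusted p under 0.01 and 7 at 2-fold, where 0.843% of all genes were called lower. The count was 10 over the 3 comparisons together, a looser rule for this comparison, and 8 with the trend removed. Shares of all genes called under the alternatives other than 2-fold were not computed, so those counts are not set against the whole table. The trend was largest for Tesc, -0.42 of its -2.53, and for Ptgds, -0.28 of its -1.51, and both kept their call without it.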
